A study of Mus musculus with 6 samples.

Results

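The classical cadherins, their catenins and the proteins that tie them to actin were followed as transcripts in NMuMG-derived mouse mammary tumour explant cells. The set was 10 genes picked by symbol out of 41214 genes counted: the cadherin genes Cdh1, Cdh2, Cdh3, Cdh11 and Cdh16, the catenin genes Ctnna1, Ctnnb1 and Ctnnd1, and the linker genes Vcl and Afdn. All 10 were found in the counts, and 8 of them had enough counts to be tested. Cdh3 and Cdh11 had too few. Cdh16 encodes a 7D cadherin with a short cytoplasmic tail, so it is a relative of the classical cadherins and not one of them. The study had 3 libraries of cells with a hairpin against CdGAP (shCdGAP, genotype CdGAP KD in the labels) and 3 libraries of cells with a control hairpin (shCTL, genotype WT). All 6 libraries came from cells that express ErbB2, the receptor tyrosine kinase of the Neu oncogene, and that trace back to NMuMG, an epithelial line made from normal mammary gland of the mouse. CdGAP, the product of Arhgap31, is a GTPase-activating protein for Cdc42 and Rac1. E-cadherin, the product of Cdh1, and the repressor Zeb2 both appear in the title of the series. The labels do not say whether the cells were clones or pools, or whether the replicates were separate cultures, so each p-value reflects library-to-library spread that could be purely technical.

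Classical cadherins hold neighbouring epithelial cells together at adherens junctions. Their extracellular repeats bind cadherins of the next cell, and their cytoplasmic tail binds p120-catenin near the membrane and beta-catenin further along. Beta-catenin binds alpha-catenin, which recruits actin filaments directly and through vinculin and afadin. E-cadherin is the main cadherin of mammary luminal epithelium, and a shift towards N-cadherin is a textbook sign of epithelial-mesenchymal transition.

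Levels are given as CPM, a gene's count per 1e+06 counts after TMM scaling of the libraries, and fold changes are shCdGAP over shCTL. A gene was called risen or fallen at an adjusted p under 0.05 in edgeR's quasi-likelihood test with Benjamini-Hochberg adjustment over all 13483 tested genes. Library totals ran from 22088774 to 25893195 counts in shCdGAP and from 19176540 to 26824249 in shCTL. Arhgap31, the gene the hairpin targets, was at 1.70, 9.16 and 8.21 CPM in shCdGAP replicates 1 to 3, against 13.2, 14.4 and 15.1 CPM in shCTL, and the groups did not overlap (adjusted p = 0.19 in the edgeR test, and 0.00407 without shCdGAP replicate 1). shCdGAP replicate 1, the library with the lowest Arhgap31, lay apart from its replicates on the second principal component, which held 21.7% of the variance. The keratin genes Krt8, Krt18 and Krt19 were abundant in every library. Krt7 rose to 5.57 CPM in shCdGAP, against 1.86 CPM in shCTL (adjusted p = 0.016 in the edgeR test). The claudin gene Cldn3 had no counts in any library. Epcam fell, with 0 counts in shCdGAP and 92 over shCTL (adjusted p = 0.00343 in the edgeR test). Summed over each list, markers of basal cells, fibroblasts, endothelium and adipocytes reached at most 7.06 CPM in any shCdGAP library and at most 6.29 CPM in any shCTL library. Within these lists Cnn1 rose to 3.16 CPM in shCdGAP, against 0.0637 CPM in shCTL (adjusted p = 0.00598 in the edgeR test). Krt5, Tek, Fabp4 and Cidec fell, with means of 0.421 to 2.54 CPM in shCTL and 0 to 0.814 CPM in shCdGAP. The 7 leukocyte markers summed to 6.58 to 18.2 CPM in shCdGAP and 18.5 to 23.7 CPM in shCTL. Cd68 alone gave 2.93 to 10.9 CPM of that in shCdGAP and 15.4 to 21.7 CPM in shCTL, while Csf1r averaged 3.86 CPM in shCdGAP and 1.87 CPM in shCTL. Itgam, the only leukocyte marker called, rose to 1.41 CPM in shCdGAP, against 0.213 CPM in shCTL (adjusted p = 0.00788 in the edgeR test). Adgre1 was at 0 throughout and the pan-leukocyte marker Ptprc stayed at or below 0.358 CPM. The part of these transcripts in the results was not tested.

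Of the 10 genes, 5 rose in shCdGAP, namely Cdh1, Cdh2, Cdh16, Vcl and Afdn. None fell at the adjusted threshold. The number that fell was also 0 at an unadjusted p under 0.05 in edgeR and 0 in DESeq2. Among all 13483 tested genes, DESeq2 called 1894 risen and 1949 (14.5%) fallen. The share of all genes at an unadjusted p under 0.05 is not given here. Counts at that threshold, here and in the lists below, thus lack a background. Among all genes tested with edgeR 10.4% rose and 11.4% fell, 21.7% together. The groups did not overlap for 7 of the 8 tested genes, and this was so for 44.1% of all tested genes. The median log2 fold change of the 8 was 0.49, beside 0.01 for all tested genes. The catenins themselves were not called. With 1 library left out, the number that rose was 3 without shCTL replicate 1, 2 without shCTL replicate 2 or 3 or shCdGAP replicate 2, 5 without shCdGAP replicate 1 and 4 without shCdGAP replicate 3. The matching shares of all tested genes were 5.74%, then 3.95%, 4.13% and 5.95%, then 19.9% and 8.96%.

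**Figure D1:**
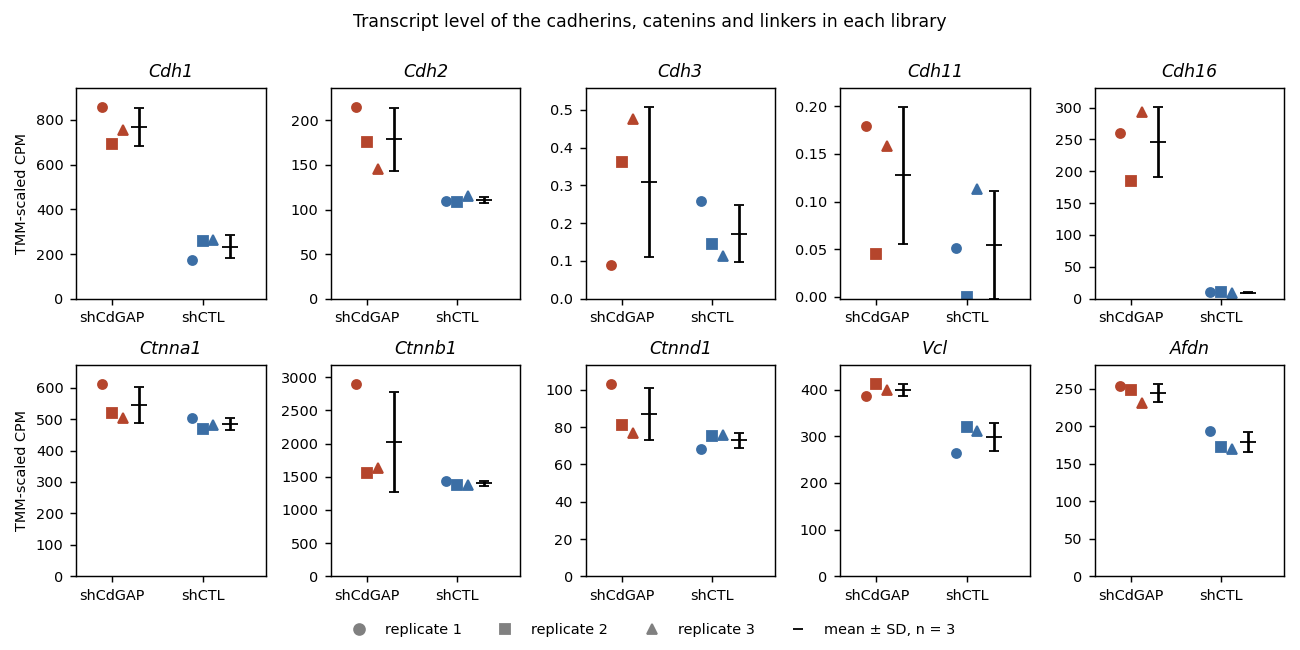
TMM-scaled CPM (y axis) of each of the 10 genes in the shCdGAP libraries (left) and the shCTL libraries (right), with the mean and SD of 3 libraries beside the points. Cdh1 and Cdh16 show the widest separation, Ctnnb1 is set apart by shCdGAP replicate 1 at 2895 CPM, and Cdh3 and Cdh11 stay below 0.5 CPM.

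Cdh1, which encodes E-cadherin, was the most abundant cadherin gene of the set in both groups. It was at 859, 690 and 754 CPM in shCdGAP replicates 1 to 3, against 173, 260 and 264 CPM in shCTL replicates 1 to 3. Every shCdGAP library was above every shCTL library by more than the spread within either group, and replicate 1 was the highest shCdGAP library and the lowest shCTL library. The fold change was 3.31 with a 95% interval of 2.39 to 4.56 (adjusted p = 0.00193 in the edgeR test). In bulk RNA, more cells with the transcript and more RNA per cell cannot be told apart. The call held in all 11 alternatives tried. Cdh1 (ENSMUSG00000000303) lies on GRCm38 chromosome 8 from 106603351 to 106670246 on the plus strand.

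The chromosome itself is a measured fact beside this result. The 722 tested genes of chromosome 8 had a median log2 fold change of 0.27, with 145 risen and 44 fallen, and 4 of the 20 chromosomes compared (8, 13, 17 and 19) had a median above 0.25. The Cdh1 log2 fold change of 1.72 exceeded its chromosome's median by 1.46, and 28 of the 722 genes had a higher one. Of the 107 tested genes within 5 Mb of Cdh1, 20 rose and 9 fell, with a median of 0.19. These chromosome values were examined after the data were seen, and the part of a chromosome-wide shift in any single gene's result was not tested.

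Cdh2, which encodes N-cadherin, rose as well, so the E- and N-cadherin transcripts were both higher in shCdGAP. It was at 215, 175 and 145 CPM in shCdGAP, against 109, 108 and 115 CPM in shCTL. The shCTL libraries lay close together, and the lowest shCdGAP library was above all of them. The fold change was 1.61 with a 95% interval of 1.25 to 2.09 (adjusted p = 0.0236 in the edgeR test). The call was lost without shCTL replicate 1, 2 or 3 or shCdGAP replicate 2 (adjusted p = 0.0718, 0.103, 0.0854 and 0.0705, within a range of 0.001 to 0.103 over the alternatives). Cdh2 lies on chromosome 18 from 16588877 to 16809246, where the median log2 fold change was 0.03.

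Cdh16, which encodes the 7D cadherin known as kidney-specific cadherin, had the largest fold change of the 8 tested genes. It was at 261, 185 and 292 CPM in shCdGAP, against 9.75, 9.90 and 8.69 CPM in shCTL. No library of one group came near the other group. The fold change was 26.0 with a 95% interval of 18.3 to 37.0 (adjusted p = 0.000141 in the edgeR test), and it was called in all 11 alternatives. Cdh16 lies on chromosome 8 from 104614141 to 104624396 on the minus strand, 1979 kb from Cdh1, and 3 of the 722 tested genes of the chromosome had a larger log2 fold change.

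Cdh3 and Cdh11 were near the limit of detection. Cdh3, which encodes P-cadherin of basal epithelial cells, had 2, 8 and 12 counts in shCdGAP and 5, 4 and 3 counts in shCTL. Cdh11, the mesenchymal OB-cadherin gene, had 4, 1 and 4 counts in shCdGAP and 1, 0 and 3 counts in shCTL. The groups overlapped for both genes, and a difference was not detectable at this depth, where 3 counts correspond to 0.112 to 0.156 CPM. Cdh3 lies on chromosome 8 from 106510913 to 106556908, on the same strand as Cdh1 and only 46.4 kb before its start. The neighbouring genes thus stood at 0.309 ± 0.199 CPM for Cdh3 and 768 ± 85.3 CPM for Cdh1 in shCdGAP, and at 0.172 ± 0.0761 and 232 ± 51.5 CPM in shCTL (SD, n = 3 each).

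Cadherin composition was compared per kilobase of annotated exon length, so that long and short transcripts count alike. This length covers the exons of all annotated isoforms, which sets a limit on comparing genes. The summed level of the 5 cadherin genes was 302, 234 and 280.5 CPM per kb in shCdGAP, against 54.7, 73.7 and 74.8 CPM per kb in shCTL, and the ratio of the means was 4.02. Cdh1 made up 61.8% ± 2.83 of that sum in shCdGAP and 74.5% ± 4.65 in shCTL (SD, n = 3 each). The lower Cdh1 share held for these 5 genes per kilobase only. Without division by length the Cdh1 share was 64.4% in shCdGAP and 65.3% in shCTL, and the groups overlapped. Over 22 cadherin genes per kilobase, 17 further ones included, the Cdh1 share was higher in shCdGAP at 43.4% ± 1.11, against 25.4% ± 3.83 in shCTL. The Cdh16 share was 30.0% ± 4.33 in shCdGAP and 4.76% ± 1.06 in shCTL. The Cdh2 share was 8.18% ± 1.54 in shCdGAP and 20.7% ± 3.6 in shCTL. Over the 22 genes the Cdh2 share was 5.74% in shCdGAP and 6.94% in shCTL, with overlap, and the Cdh16 share was 21.1% in shCdGAP and 1.59% in shCTL, without. For Cdh1, Cdh2 and Cdh16 the shares among the 5 genes did not overlap between the groups. Cdh3 and Cdh11 held 0.0297% and 0.0107% in shCdGAP, and 0.0688% and 0.0194% in shCTL. Between the E- and N-cadherin genes alone, the ratio of Cdh1 to Cdh2 per kilobase was 7.04, 6.94 and 9.15 in shCdGAP, against 2.79, 4.25 and 4.05 in shCTL. These shares and ratios describe genes already tested singly and carry no test of their own.

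**Figure D2:**
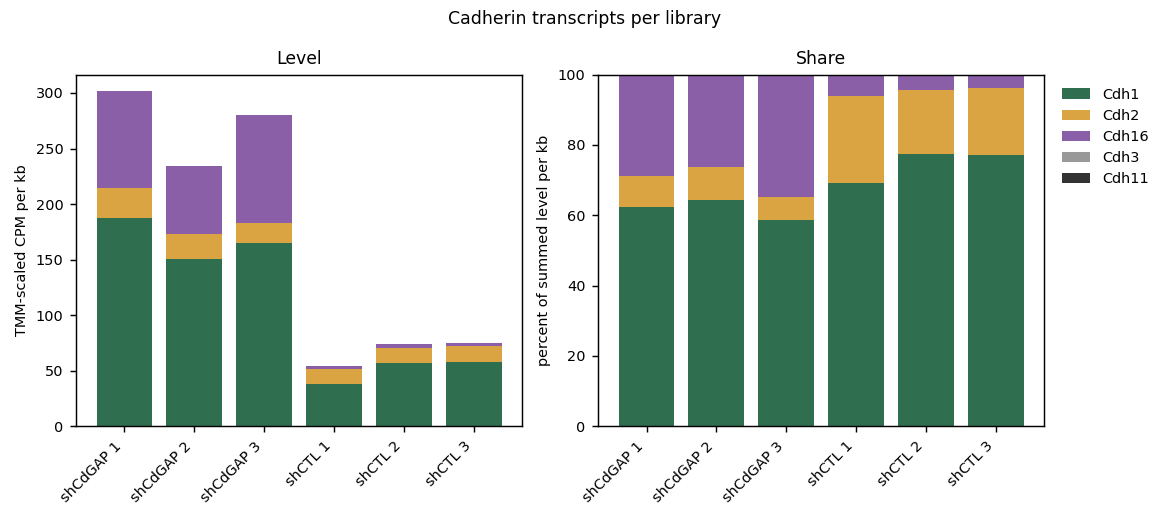
Stacked bars of the 5 cadherin genes in each library, shCdGAP left of shCTL, as TMM-scaled CPM per kb (left panel) and as percent of their sum (right panel). The bars of shCdGAP reach 234 to 302 CPM per kb, against 54.7 to 74.8 in shCTL, and Cdh16 averages 30.0% of the shCdGAP bars.

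The genes of the catenins showed smaller differences than Cdh1, Cdh2 and Cdh16, and none was called. The fold change of Ctnnb1 was nevertheless above those of Vcl and Afdn, which were called. Ctnnb1 encodes beta-catenin, which binds the cadherin tail and also carries Wnt signals to the nucleus. It was at 2895, 1557 and 1627 CPM in shCdGAP, against 1439, 1374 and 1383 CPM in shCTL. Each shCdGAP library was above each shCTL library, but replicate 1 lay far above its own replicates. The fold change was 1.45 with a 95% interval of 0.954 to 2.2 (adjusted p = 0.187 in the edgeR test). Without shCdGAP replicate 1 the log2 fold change was 0.20 (adjusted p = 0.102), against 0.53 with all libraries, and over the alternatives the adjusted p ran from 0.102 to 0.376.

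Ctnna1, which encodes alpha-catenin, was at 611, 518 and 503 CPM in shCdGAP, against 504, 467 and 481 CPM in shCTL. The groups touched, since the lowest shCdGAP library was below the highest shCTL library. Its fold change was 1.12 with a 95% interval of 0.934 to 1.35 (adjusted p = 0.338 in the edgeR test). Ctnnd1, which encodes p120-catenin, the protein that keeps cadherins at the surface, was at 103, 81.3 and 77.1 CPM in shCdGAP, against 68.4, 75.2 and 75.7 CPM in shCTL. The groups lay side by side without overlap, and the fold change was 1.19 with a 95% interval of 0.948 to 1.5 (adjusted p = 0.247 in the edgeR test). The intervals of all 3 catenins thus reach below 1, and their upper ends lie between 1.35 and 2.2. All 3 had their highest level in replicate 1 of shCdGAP.

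Set against the catenins, there was more transcript of Cdh1, Cdh2, Cdh3 and Cdh11 per catenin transcript in shCdGAP. The products of these genes bind catenins. Their summed per-kilobase level was 190 ± 21.8 CPM per kb in shCdGAP and 64.6 ± 11.4 in shCTL (SD, n = 3 each). This sum covers the set only and leaves out other cadherin genes, such as the type II cadherin genes Cdh6 and Cdh19. Cdh6 was at 62.9 ± 10.9 CPM per kb in shCdGAP and 35.6 ± 4.38 in shCTL, above Cdh2 at 22.2 and 13.7. Cdh19 went the other way, at 0.0194 ± 0.0153 CPM per kb in shCdGAP and 4.89 ± 0.868 in shCTL. Ratios with Cdh6 or Cdh19 included were not computed. The ratio of the sum to Ctnnb1 was 0.378, 0.566 and 0.574 in shCdGAP, against 0.182, 0.261 and 0.265 in shCTL. Beta-catenin transcript thus stayed in excess of this sum in every library. The ratio to Ctnna1 was 1.30, 1.23 and 1.35 in shCdGAP, against 0.377, 0.557 and 0.553 in shCTL, so the sum was above Ctnna1 in every shCdGAP library and below it in every shCTL library. The ratio to Ctnnd1 was 15.2, 15.6 and 17.4 in shCdGAP, against 5.50, 6.85 and 6.95 in shCTL. None of these ratios overlapped between the groups. Without division by length the ratio to Ctnna1 was 1.74 in shCdGAP and 0.712 in shCTL.

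**Figure D3:**
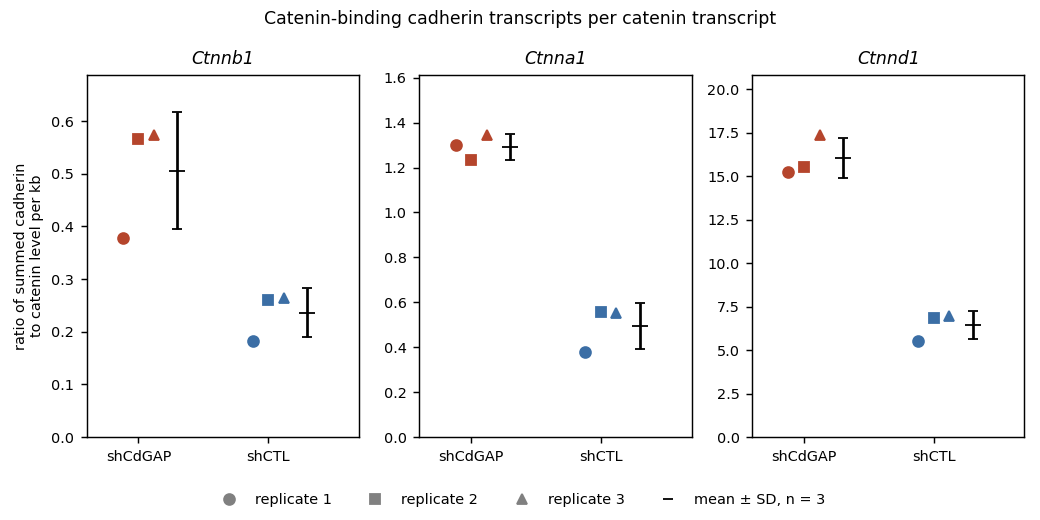
Ratio of the summed per-kilobase level of Cdh1, Cdh2, Cdh3 and Cdh11 to that of each catenin (y axis), for the shCdGAP libraries (left) and the shCTL libraries (right), with mean and SD (n = 3). The ratio to Ctnna1 is 1.23 to 1.35 in shCdGAP and 0.377 to 0.557 in shCTL.

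Ranked by level per kilobase, the order of the genes differed between the groups. In shCdGAP the means were 397 ± 148 CPM per kb for Ctnnb1, 168 ± 18.7 for Cdh1, 147 ± 15.7 for Ctnna1, 82.0 ± 18.4 for Cdh16 and 76.2 ± 2.49 for Vcl. Below them came Afdn at 23.9 ± 1.15, Cdh2 at 22.2 ± 4.35 and Ctnnd1 at 11.9 ± 1.90 CPM per kb (SD, n = 3). In shCTL, Ctnnb1 stood at 274 ± 6.91, Ctnna1 at 131 ± 5.01, Vcl at 56.9 ± 5.81 and Cdh1 at 50.8 ± 11.3 CPM per kb. They were followed by Afdn at 17.5 ± 1.28, Cdh2 at 13.7 ± 0.442, Ctnnd1 at 9.98 ± 0.554 and Cdh16 at 3.15 ± 0.219. Neighbours in this order whose libraries overlapped were Cdh1 and Ctnna1, Cdh16 and Vcl, and Afdn and Cdh2 in shCdGAP, and Vcl and Cdh1 in shCTL. Within single libraries, Cdh1 was above Ctnna1 in each shCdGAP library and Vcl above Cdh1 in each shCTL library. The order of Cdh16 and Vcl, and of Afdn and Cdh2, differed between shCdGAP libraries.

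Both linker genes rose. Vcl encodes vinculin, which binds alpha-catenin under tension and also sits at focal adhesions. It was at 385, 411 and 398 CPM in shCdGAP, against 263, 320 and 310 CPM in shCTL. The groups were apart, and the fold change was 1.34 with a 95% interval of 1.11 to 1.6 (adjusted p = 0.0381 in the edgeR test). That call held without shCdGAP replicate 1 and was lost when any other single library was left out (adjusted p = 0.0807 to 0.122) and with no filter on low counts (0.0754), the range over all alternatives being 0.0072 to 0.122. Without shCTL replicate 1 its log2 fold change was 0.33.

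Afdn encodes afadin, which links nectins and alpha-catenin to actin. It was at 254, 248 and 231 CPM in shCdGAP, against 194, 173 and 170 CPM in shCTL. The groups did not overlap, and the fold change was 1.36 with a 95% interval of 1.15 to 1.61 (adjusted p = 0.0234 in the edgeR test). The call was lost without shCTL replicate 2 or 3 or shCdGAP replicate 2 (adjusted p = 0.123, 0.122 and 0.0822, within a range of 0.000779 to 0.123 over the alternatives). Afdn lies on chromosome 17 from 13760539 to 13906150, and the 651 tested genes of that chromosome had a median log2 fold change of 0.38. The Afdn value of 0.45 exceeded this median by 0.07, and 282 of the 651 genes had a higher one. Vcl lies on chromosome 14 from 20929433 to 21033673, where the median was 0.01 and 77 of 435 tested genes had a higher value than its 0.42. For Vcl, the oppositely oriented gene Ap3m1 overlaps it with 5032 counts in shCdGAP and 5540 in shCTL, and the stranded counting keeps the genes apart.

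**Figure D4:**
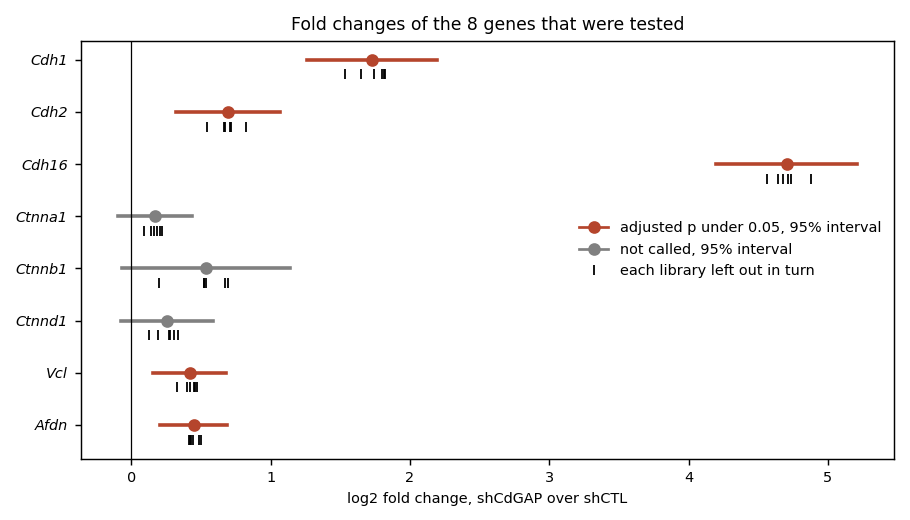
Log2 fold change, shCdGAP over shCTL (x axis), of the 8 tested genes, with 95% intervals (lines) and the values with each library left out in turn (ticks). Cdh16 at 4.70 and Cdh1 at 1.72 lie apart from the others, and the intervals of Ctnna1, Ctnnb1 and Ctnnd1 include 0.

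Promoter sequences from RefSeq (GRCm38.p6) were at hand for 4 of the 10 genes, Ctnnb1, Ctnnd1, Vcl and Afdn, with 6 start sites in all. The 250 bases before each start were searched on both strands for CACCTG, an E-box form that Zeb and Snail repressors bind, and for the consensus CArG box of serum response factor. The E-box letters were in 0 of these 6 windows, against 17.2% of all 32851 windows of this length. Across the 6 further lists of junction genes read below, they were in 10 of 60 windows (16.7%), near the share of all windows. Nectin2 was 1 of the genes with such a window, and others among them were not called. The CArG box, a consensus that matches itself on the other strand and does not overlap the E-box in these windows, was searched for after the Vcl sequence had been seen. It was in the Vcl window, beginning 227 bases before the start, and in 482 of all 32851 windows (1.47%). The windows of the linkers that rose are shown with that of Nectin2, a nectin gene that also rose and holds an E-box (CAGGTG on the gene's strand) beginning 53 bases before its start, and the matched letters are in capitals. A match of letters is no evidence of binding, and its absence says nothing about a factor. The windows are chr14:20929148-20929397 (plus strand) for Vcl, chr17:13760291-13760540 (plus strand) for Afdn and chr7:19749574-19749823 (minus strand) for Nectin2.
Vcl: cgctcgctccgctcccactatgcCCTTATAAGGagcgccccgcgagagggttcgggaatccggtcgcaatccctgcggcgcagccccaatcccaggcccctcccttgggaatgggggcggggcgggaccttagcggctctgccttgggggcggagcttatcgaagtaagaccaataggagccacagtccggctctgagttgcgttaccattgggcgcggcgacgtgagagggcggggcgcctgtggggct
Afdn: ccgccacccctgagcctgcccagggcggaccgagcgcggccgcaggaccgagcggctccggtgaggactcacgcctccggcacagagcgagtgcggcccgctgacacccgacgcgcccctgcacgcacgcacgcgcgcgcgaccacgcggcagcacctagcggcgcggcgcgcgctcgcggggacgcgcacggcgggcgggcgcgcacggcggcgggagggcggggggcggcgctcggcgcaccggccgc
Nectin2: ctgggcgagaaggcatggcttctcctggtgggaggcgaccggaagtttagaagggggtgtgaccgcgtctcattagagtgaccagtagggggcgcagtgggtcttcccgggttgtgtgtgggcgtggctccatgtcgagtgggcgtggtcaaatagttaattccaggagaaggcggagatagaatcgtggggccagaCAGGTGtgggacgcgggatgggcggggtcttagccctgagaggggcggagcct

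Other genes of the junction were read from 6 lists, whose medians stand beside the 0.01 of all tested genes. Their counts stand beside 10.4% risen and 11.4% fallen among all tested genes in edgeR, and no list was tested as a whole. Among 17 further cadherins, 6 could be tested, of which 2 rose and 3 fell, with a median log2 fold change of −0.30. Cdh6, a type II cadherin gene known as K-cadherin, was at 197, 159 and 141 CPM in shCdGAP, against 107, 88.3 and 85.8 CPM in shCTL (1.77-fold, adjusted p = 0.0149 in the edgeR test). Cdh13, whose T-cadherin is anchored by a lipid and has no tail, was at 43.8, 33.1 and 34.3 CPM in shCdGAP, against 12.7, 16.7 and 18.9 CPM in shCTL (adjusted p = 0.00771). The Cdh6 call was lost without shCTL replicate 2 or 3 (adjusted p = 0.0755 and 0.0741, within 0.000159 to 0.0755 over the alternatives), while Cdh13, on chromosome 8, kept its call in every alternative.

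Cadherin genes that fell included the 7D relative of Cdh16. Cdh17, the liver-intestine cadherin gene, was at 198, 197 and 237 CPM in shCdGAP, against 344, 434 and 399 CPM in shCTL (log2 fold change −0.90 ± 0.133, SE, adjusted p = 0.00533 in the edgeR test). The ratio of Cdh16 to Cdh17 per kilobase was 1.96, 1.4 and 1.84 in shCdGAP, against 0.0423, 0.0340 and 0.0325 in shCTL. Cdh16 was thus the more abundant of the 7D pair in each shCdGAP library and Cdh17 in each shCTL library. In shCTL, Cdh17 at 87.7 ± 10.1 CPM per kb was also above Cdh1 at 50.8 ± 11.3 (SD, n = 3). In shCdGAP, Cdh17 at 47.1 ± 5.09 CPM per kb was below Cdh1 at 168 ± 18.7. Cdh19, a type II cadherin gene known from Schwann cell precursors, was near 0 in shCdGAP at 0.0447, 0.0453 and 0.159 CPM, against 22.9, 23.3 and 16.6 CPM in shCTL. It had 6 counts over shCdGAP and 1524 over shCTL (adjusted p = 0.000179), and both Cdh17 and Cdh19 kept their calls in every alternative. Cdh10, named here after its values were seen, had 0 counts in shCdGAP and 71 in shCTL, of which 44 were in replicate 1. With the shCdGAP group set to a floor of 3 counts in all, it was at least 22.4-fold lower there, and at least 11.6-fold without shCTL replicate 1, which leaves 27 counts. Its call (adjusted p = 0.0403) was lost without shCTL replicate 2 or 3 or shCdGAP replicate 2 or 3 (0.0629 to 0.0808, within 3.29e-05 to 0.0808 over the alternatives). Of the 11 cadherins without enough counts, 9 stayed under 3 counts in every library. The others, Cdh5 and Cdh26, are named here after their values were seen. Cdh5 had 1 count over shCdGAP and 31 over shCTL, and Cdh26 had 0 and 31. Their groups did not overlap, and neither passed the filter for the main test.

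Among 7 further catenins and relatives, 4 were tested, of which 1 fell and 0 rose, and the number that rose was also 0 at an unadjusted p under 0.05 in edgeR and 0 in DESeq2. The median log2 fold change of that list was 0.02. The one that fell was Ctnnal1, which encodes alpha-catulin, an alpha-catenin relative that is not part of the cadherin complex. It was at 39.3, 35.2 and 34.5 CPM in shCdGAP, against 116, 90.0 and 86.0 CPM in shCTL, groups that lay well apart (adjusted p = 0.00147 in the edgeR test). Jup, which encodes plakoglobin, the close relative of beta-catenin, was named after its values were seen. It was at 456, 296 and 247 CPM in shCdGAP, against 238, 222 and 233 CPM in shCTL (fold change 1.44, 95% interval 0.988 to 2.10, adjusted p = 0.155 in the edgeR test). As with Ctnnb1, shCdGAP replicate 1 was the highest library, and without it the Jup log2 fold change was 0.24 (adjusted p = 0.0622, the range over the alternatives being 0.0622 to 0.349). Ctnnb1 made up 88.4% ± 1.26 of the Ctnnb1 and Jup transcripts per kilobase in shCdGAP and 88.4% ± 0.216 in shCTL (SD, n = 3 each).

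Among 9 nectins and partners of afadin, 8 were tested, of which 1 rose and 1 fell, with a median log2 fold change of −0.37. Nectin2, a nectin gene of epithelial contacts, was at 44.9, 42.3 and 37.5 CPM in shCdGAP, against 33.0, 23.5 and 24.0 CPM in shCTL (adjusted p = 0.0439 in the edgeR test). The call was close to the threshold. It was lost without shCTL replicate 2 or 3 or shCdGAP replicate 2 or 3, with adjusted p up to 0.170 (from 0.00925 over the alternatives), with no filter on low counts (0.0504) and at a mean of at least 10 CPM (0.0606).

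Among 12 tested genes listed as actin linkers of the junction, 3 rose and 0 fell, the microtubule gene Camsap3 being 1 of the 3. At an unadjusted p under 0.05 in edgeR 2 fell, and 2 fell in DESeq2. The list's median log2 fold change was 0.27. Enah, whose product Mena extends actin filaments at junctions, was at 177, 202 and 216 CPM in shCdGAP, against 95.8, 84.5 and 81.8 CPM in shCTL (2.27-fold, adjusted p = 0.00141 in the edgeR test). Camsap3, which encodes a protein that anchors microtubule minus ends and is recruited to adherens junctions, was at 23.2, 18.8 and 17.6 CPM in shCdGAP, against 5.0, 6.84 and 6.96 CPM in shCTL (3.16-fold, adjusted p = 0.00251). Both genes kept their calls in every alternative. Camsap3 lies on chromosome 8, whose median was 0.27, and its log2 fold change was 1.66. Ajuba, a LIM protein gene of the alpha-catenin complex that was named after its values were seen, was at 103 ± 18.6 CPM in shCdGAP and 63.1 ± 6.59 CPM in shCTL (SD, n = 3 each). Its call (adjusted p = 0.0265 in the edgeR test) held without shCdGAP replicate 1 and was lost when any other single library was left out (0.0688 to 0.117, within 0.000408 to 0.117 over the alternatives).

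Of 11 genes of cadherin processing and turnover, 2 rose and 0 fell, with 1 lower at an unadjusted p under 0.05 in edgeR and 0 fallen in DESeq2. Rab11a, whose GTPase carries E-cadherin through recycling endosomes, was at 339, 276 and 267 CPM in shCdGAP, against 145, 163 and 163 CPM in shCTL (1.87-fold, adjusted p = 0.00446 in the edgeR test). Ptprm, a receptor phosphatase gene whose product associates with cadherin complexes, was at 25.2, 16.4 and 11.7 CPM in shCdGAP, against 6.50, 6.91 and 6.06 CPM in shCTL (adjusted p = 0.0159 in the edgeR test). Leaving out shCTL replicate 1, 2 or 3 each ended the Ptprm call (adjusted p = 0.0577 to 0.0742, within 4.31e-05 to 0.0742 over the alternatives), and Ptprm lies on chromosome 17. The median of this list was 0.04. Of 9 genes of the complex that destroys beta-catenin, 1 fell and 0 rose, with 2 higher at an unadjusted p under 0.05 in edgeR and 1 risen in DESeq2. The one that fell was Axin2, a scaffold gene that is also a Wnt target, at 1.83, 1.31 and 1.31 CPM in shCdGAP, against 3.71, 5.57 and 5.94 CPM in shCTL (adjusted p = 0.00637 in the edgeR test). The median of that list was −0.10.

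**Figure D5:**
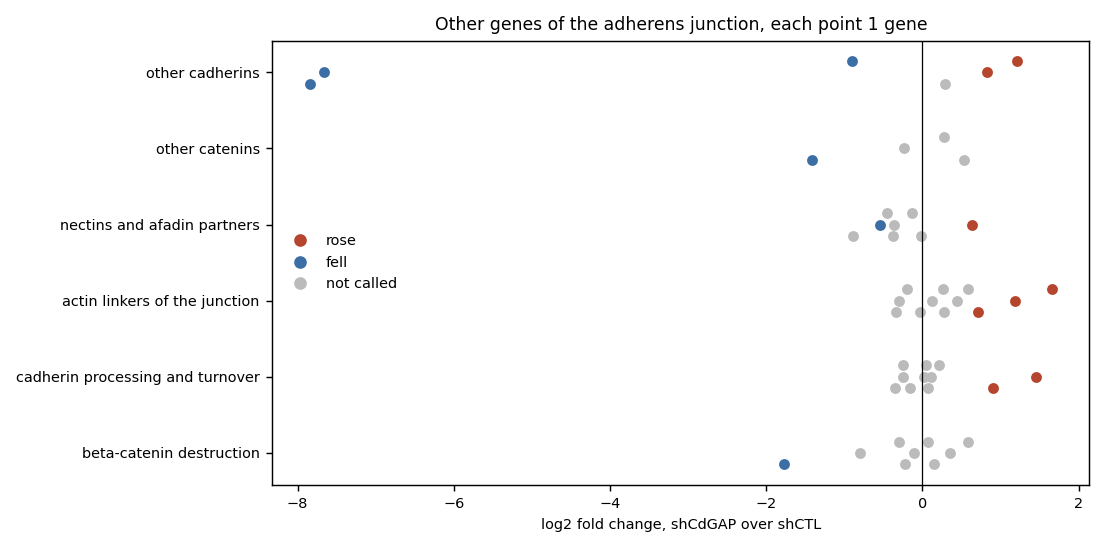
Log2 fold change, shCdGAP over shCTL (x axis), of every tested gene of the 6 further lists, 1 point a gene, coloured by the edgeR call. Cdh19 lies at the far left at −7.85 beside Cdh10, whose fitted value is no bound because its shCdGAP counts are all 0, and the rightmost points are Camsap3 at 1.66 and Ptprm at 1.45.

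Genes with the profile most like that of Cdh1 were ranked by Pearson correlation of log2 CPM over the 6 libraries. The 6 points fall into the shCdGAP and shCTL groups, so the group difference enters each value. Among 10296 genes with at least 5 CPM, the highest correlations belonged to Cog2 (0.998), Dync1li2 (0.998) and Samd9l (0.997). Cog2 was at 38.3, 35.7 and 37.0 CPM in shCdGAP, against 24.7, 27.2 and 28.1 CPM in shCTL. Cog2 and Dync1li2 lie on chromosome 8, as Cdh1 does. Within the set itself the correlation with Cdh1 was 0.97 for Cdh16, 0.96 for Vcl, 0.90 for Cdh2 and 0.87 for Afdn, against 0.65 to 0.76 for the catenin genes. Zeb2, the repressor named in the series title, was at 19.5, 16.1 and 17.1 CPM in shCdGAP, against 43.6, 28.8 and 30.8 CPM in shCTL (log2 fold change −0.97, adjusted p = 0.0158 in the edgeR test). The Zeb2 call was lost without shCdGAP replicate 2 (adjusted p = 0.0668, within 0.000148 to 0.0668 over the alternatives). Replicate 1 had the highest Zeb2 of its group in both shCdGAP and shCTL, where it had the highest Cdh1 of shCdGAP and the lowest Cdh1 of shCTL.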

How the data were processed

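RNA was sequenced from 3 shCdGAP and 3 shCTL libraries. Per the file headers, the authors deposited raw fragment counts per gene, made with featureCounts 1.4.6 from TopHat alignments and the Ensembl release 77 annotation of GRCm38, using read pairs with both ends aligned and strand setting 2 (reverse-stranded). Gene lengths are the authors' deposited values in the same files. The submitters' processing notes also name, with no role, Cuffdiff 2.2.1, DESeq, TopHat2 2.0.14, Trimmomatic 0.30 and CASAVA 1.8. GENCODE M21 symbols matched 40254 of 41214 genes.

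Counts were fitted with edgeR 4.0.16 in R 4.3.3 (filterByExpr with minimum count 10 and total 15, TMM scaling, quasi-likelihood F test over all 6 libraries, Benjamini-Hochberg adjustment over 13483 genes). Standard errors were taken as the absolute log2 fold change over the square root of F, and 95% intervals from them are approximate. The steps were also run on counts simulated as independent libraries with the spread estimated in this fit. That run could not reproduce a deviating library or a pairing, and its outcome is not given here. Alternatives were RLE size factors, DESeq2 1.42.0, no filter on low counts, a mean of at least 10 CPM, a replicate block and each library left out. Chi-square divided by its degrees of freedom was 3.00 or more for every pair within a group, so no library repeated another up to counting error. This check cannot tell separate cultures from separate preparations of the same RNA or culture. Same-numbered libraries deviated together from their group means (correlations 0.36, 0.29 and 0.25), so the numbers were taken as pairs in the replicate block. The main fit had no replicate term, so its p-values and intervals ignore any pairing. The case for pairing comes from these correlations only. shCdGAP replicate 2 with shCTL replicate 3 gave 0.254, above the 0.246 of replicate 3 with replicate 3. shCdGAP replicate 3 with shCTL replicate 2 gave 0.186. How replicates 2 and 3 pair is thus not settled. A count of 0 allows up to 0.112 to 0.156 CPM (3 counts), and such limits cover counting error only.

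The genes and lists were chosen with earlier results of these data known. Named genes were the 10 of the set, Arhgap31, Zeb2, up to 4 called genes of each list (in each direction the 2 with the smallest adjusted p), and the 3 most like Cdh1, plus those stated as named after their values were seen. A gene that the rule names is not reported here.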

Additional observations from a re-analysis of the deposited data

How the results depend on the processing

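No tested result changed direction in any of the alternatives run. The difference in Cdh1 share, which has no test, did. Of 306 values for 28 genes, 254 stayed on their side of the threshold, 51 lost it and 1, Arhgap31 without shCdGAP replicate 1 (log2 fold change −0.71, adjusted p = 0.00407, within 0.00407 to 0.358 over the alternatives), gained it. Zeb2 lost its call without shCdGAP replicate 2 (adjusted p = 0.0668, from 0.000148 over the alternatives). With 1 library left out, between 538 and 2753 of all genes rose and between 856 and 3032 fell, the highest counts being those without shCdGAP replicate 1. In the same fits 2 to 5 of the 10 genes rose, 1 to 2 of the further cadherins rose, 0 to 1 of the nectins rose and 0 to 4 fell. Of the actin linkers 2 to 5 rose and 0 to 2 fell, of the processing genes 1 to 2 rose and 0 to 1 fell, and of the destruction genes 0 to 3 rose and 1 to 4 fell. Requiring a mean of at least 10 CPM left 870 risen and 825 fallen genes, 0 risen nectins, 1 fallen actin linker and 0 fallen destruction genes, and fewer genes were tested there. With no filter 5 further cadherins fell, and of the nectins 0 rose and 0 fell. DESeq2 called 2 fallen nectins, 2 fallen actin linkers, 1 risen and 2 fallen destruction genes. With the replicate block, 2 destruction genes fell, and Cog2 lost its call (adjusted p = 0.0556, within 0.00055 to 0.121 over the alternatives). The block changed no other call of a gene named here. The cause of these differences was not tested.

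Without division by length, the Cdh1 share was 64.4% in shCdGAP and 65.3% in shCTL, the Cdh2 share 15% in shCdGAP and 31.9% in shCTL, and the Cdh16 share 20.6% in shCdGAP and 2.73% in shCTL. The ratio of summed Cdh1, Cdh2, Cdh3 and Cdh11 to Ctnna1 was then 1.74 in shCdGAP and 0.712 in shCTL. That to Ctnnd1 was 10.9 in shCdGAP and 4.68 in shCTL. Over all 22 listed cadherins per kilobase, chosen after seeing the data, the share in shCdGAP and shCTL was 43.4% and 25.4% for Cdh1, 5.74% and 6.94% for Cdh2, and 21.1% and 1.59% for Cdh16.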
